A study of Homo sapiens with 6 samples.

Results

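The genes of the proteasome were described by nascent RNA sequencing in A375, a human melanoma cell line. Members were all gene symbols that begin with PSM, a letter from A to G and a number, which gave 33 genes of the 12438 symbols in the deposited tables. They comprised 12 genes of the core particle (PSMA and PSMB), 14 of the regulatory particle (PSMC and PSMD), 2 of an activator cap (PSME1 and PSME2), 1 inhibitor (PSMF1) and 3 assembly factors of the core (PSMG2, PSMG3 and PSMG4). The remaining symbol, PSMC3IP, follows the same pattern but encodes a partner protein of PSMC3 that acts in homologous recombination and is not a proteasome subunit, so it is named apart below. Of 48 proteasome genes listed for the comparison 32 were in the tables, and the other genes, among them PSMA3, PSMA4, PSMA5, PSMA6, PSMC2, PSMC6, PSMD12, PSMD14 and PSMG1, were not analysed here.

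The proteasome is the protease complex that degrades proteins tagged with ubiquitin. Its core is a barrel of stacked rings, in which the α rings (PSMA genes) gate the entry and the β rings (PSMB genes) carry the proteolytic sites. A regulatory particle of ATPases (PSMC genes) and non-ATPase subunits (PSMD genes) binds the tagged protein, removes the ubiquitin, unfolds the chain and feeds it into the core. Its genes are expressed in all cells, and the transcription factor NFE2L1 raises them when the proteasome is inhibited.

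Treatment lasted 48 h, with the solvent DMSO, with 25 µM leflunomide or with 25 µM A771726, and each of the 3 groups has 2 libraries. Leflunomide is a prodrug with an isoxazole ring, which is open in its metabolite A771726. The metabolite blocks dihydroorotate dehydrogenase, a mitochondrial enzyme needed to make pyrimidines. The assay was global run-on sequencing (GRO-seq), which labels and sequences the RNA that engaged polymerases go on making in isolated nuclei, so the values describe transcription under way and not messenger RNA or protein. In a bulk assay fewer transcribing cells and less RNA per cell cannot be told apart.

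The tables give, for each gene and group, the authors' mean promoter density, mean gene body density and mean traveling ratio, which is promoter density over gene body density. The unit of a density is not named, so values are printed as density units. The 2 libraries behind each mean were recovered by solving the mean densities and the mean ratio together, for 26 members in all groups. In 16 of these members each value could be assigned to a library in all groups, and the library in which 1 promoter read is worth less is called library 1 of its group. Library numbers do not pair libraries across groups and were not matched to the replicate letters of the labels. A pair that could not be assigned is given with the lower gene body value first. The labels do not say that replicates came from separate cultures, so each p-value measures the spread between these libraries, which may be technical.

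Across all genes with assigned libraries the DMSO libraries had median gene body densities of 0.0405 and 0.0348, the leflunomide libraries 0.0375 and 0.0349, and the A771726 libraries 0.0277 and 0.0227. The 16 members with assigned libraries followed the same order, at 0.0489 and 0.0449, then 0.0479 and 0.0418, then 0.0365 and 0.0283. A lower density in all genes moves with the A771726 group. Its part in the values of the proteasome genes was not tested beyond centring the groups on the median gene and the libraries on their medians, as given in the last section. As to cell identity, 9 of the 14 listed markers of the melanocyte lineage were in the tables, and they spread from high to low gene body density. SOX10, S100A1, AXL, MCAM and PAX3 lay at percentiles 98.6, 97.6, 85.3, 81.7 and 71.9, whereas MITF, PMEL, NGFR and MLANA lay below the median gene, at 48.7, 48.4, 33.7 and 28.6. Of the 11 listed markers of other cell types 4 were in the tables, COL1A1, KRT14, PECAM1 and VWF, at percentiles 12.1, 37.1, 26.1 and 3.32.

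Promoter sequences were available for 27 of the 33 members, from RefSeq on the build GRCh38.p14, each covering 250 bases before and 50 bases after the gene start. The deposited files use hg18 and do not give the promoter limits, so these windows need not be the ones counted. The 4 shown belong to PSMC5, PSMD2 and PSMD7, the members with the smallest limma p-values for promoter density, and to PSMB4, the member with the highest gene body density. They are written 5′ to 3′ on the strand of the gene, and capitals mark motif matches on either strand. The motifs were TGANNNNGC, CCAAT (bound by the factor NF-Y) and the ETS factor core CCGGAAG. TGANNNNGC is a loose pattern for the antioxidant response element, a kind of site that NFE2L1 binds, and a match need not be such an element.
PSMC5, chr17:63827181-63827480, + strand: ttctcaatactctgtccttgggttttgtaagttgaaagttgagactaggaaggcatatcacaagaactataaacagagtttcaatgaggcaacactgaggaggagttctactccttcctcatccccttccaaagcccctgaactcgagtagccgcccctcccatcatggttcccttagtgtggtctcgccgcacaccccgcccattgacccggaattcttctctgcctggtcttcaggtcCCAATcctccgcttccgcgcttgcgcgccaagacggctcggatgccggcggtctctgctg
PSMD2, chr3:184298991-184299290, + strand: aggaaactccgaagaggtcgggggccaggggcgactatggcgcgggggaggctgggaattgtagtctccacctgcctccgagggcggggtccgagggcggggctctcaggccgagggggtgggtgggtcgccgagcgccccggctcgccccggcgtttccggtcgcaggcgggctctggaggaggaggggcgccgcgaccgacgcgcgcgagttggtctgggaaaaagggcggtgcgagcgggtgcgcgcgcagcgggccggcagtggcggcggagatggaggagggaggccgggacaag
PSMD7, chr16:74296564-74296863, + strand: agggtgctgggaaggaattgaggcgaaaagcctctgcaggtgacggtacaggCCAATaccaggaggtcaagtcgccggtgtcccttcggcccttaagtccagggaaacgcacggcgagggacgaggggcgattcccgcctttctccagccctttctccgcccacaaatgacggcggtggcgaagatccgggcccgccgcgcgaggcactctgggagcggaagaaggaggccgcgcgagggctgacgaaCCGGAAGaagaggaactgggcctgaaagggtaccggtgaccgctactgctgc
PSMB4, chr1:151399323-151399622, + strand: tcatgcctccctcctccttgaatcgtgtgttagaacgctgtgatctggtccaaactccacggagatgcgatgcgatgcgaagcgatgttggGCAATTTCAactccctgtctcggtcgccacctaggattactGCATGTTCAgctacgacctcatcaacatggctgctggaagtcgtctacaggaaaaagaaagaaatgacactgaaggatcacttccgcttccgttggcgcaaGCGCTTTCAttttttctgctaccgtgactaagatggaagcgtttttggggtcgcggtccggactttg

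The PSMB4 promoter held 3 matches of TGANNNNGC, all read on the opposite strand, and neither of the other motifs. One CCAAT lay in the PSMC5 window, the PSMD7 window held 1 CCAAT and 1 CCGGAAG, and the PSMD2 window held none of the 3 sequences. TGANNNNGC was found in 15 of 27 member promoters (55.6%) and in 42.1% of all 27305 promoters of the same length. CCAAT was found in 11 (40.7%) against 35.7% of all, and CCGGAAG in 8 (29.6%) against 10.7%. Each motif was counted on its own, matches of different motifs may overlap, and a match is a description of the letters and not a binding site.

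In the gene bodies the proteasome genes had a higher density than most genes. Their median density, averaged over groups, was 0.0455 against 0.0175 for all genes, and 30 of the 33 lay above the all-gene median. The median member had 0.0511 in DMSO, 0.0483 with leflunomide and 0.0333 with A771726, and the median of all genes was 0.0196, 0.0188 and 0.0128. PSMB4, a β ring subunit without an active site, was highest at 0.262 (percentile 98.2), followed by the ATPase PSMC5 at 0.153 and the lid subunit PSMD7 at 0.136. PSMC3IP (0.126), the α subunit PSMA7 (0.1115) and the assembly chaperone PSMG3 (0.111) came next. The lowest were PSMG2 at 0.0111, the scaffold subunit PSMD1 at 0.0140 and PSMD9, a chaperone of the ATPase ring, at 0.0167.

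The catalytic β subunits, which stand in equal number in the standard core, differed in nascent density. PSMB5 averaged 0.0470, PSMB7 0.0420 and PSMB6 0.0204. The interferon-inducible subunits PSMB10 and PSMB8, which are not part of that comparison, averaged 0.0894 and 0.0586. Spans in the GENCODE 29 annotation ran from 2.4 to 138.8 kb with a median of 12.8 kb, and Spearman's rho between span and mean gene body density was -0.67 across the 33 members, which share libraries and counting. A span covers the whole gene, whereas a density is that of 1 deposited row, which may count a shorter transcript. Another coding gene overlaps 15 members and 9 have a coding gene that starts within 1 kb on the opposite strand. Since the sources used here do not say whether strand was used in counting, reads of such pairs cannot be told apart. Named pseudogenes exist for 8 members, among them PSMC1 with 13, so that reads of these genes are uncertain.

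**Figure D1:**
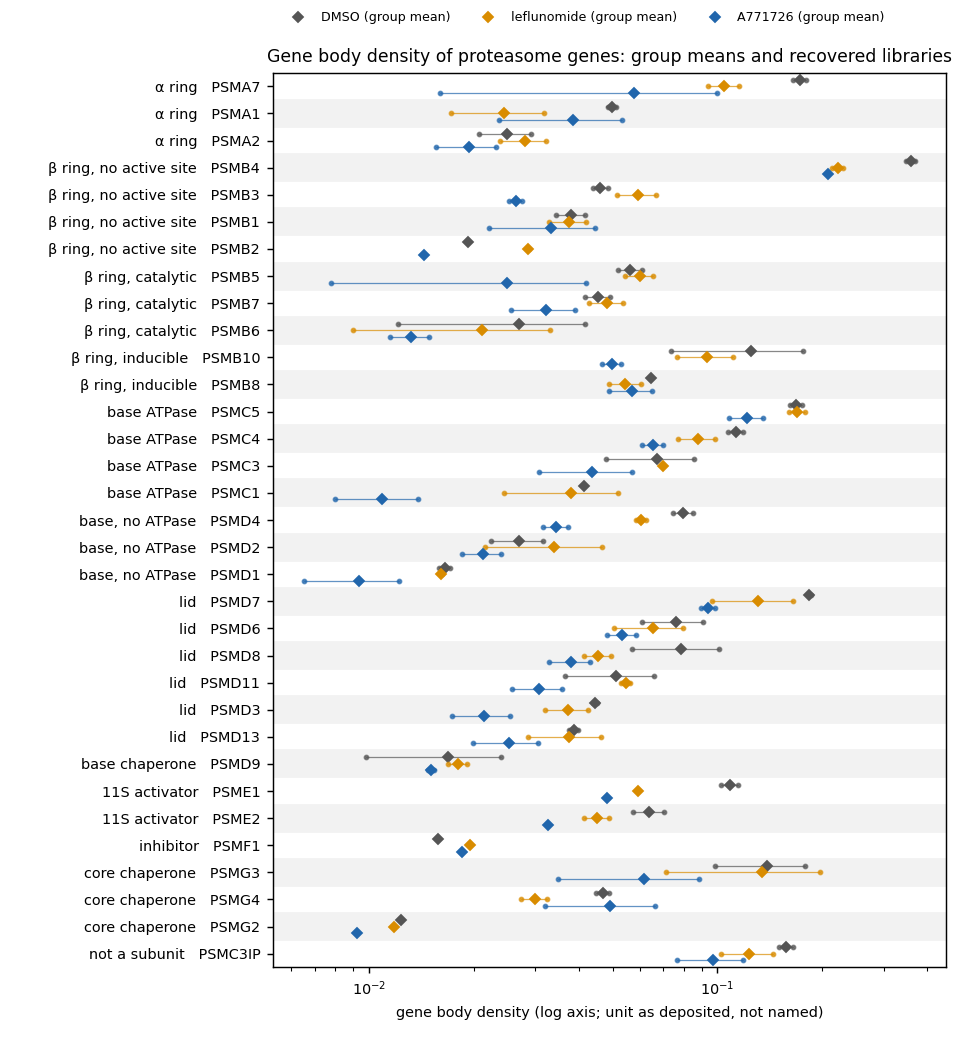
Gene body density of the 33 members on a log axis, grouped by role, with diamonds for the deposited group means and small points joined by lines for the 2 recovered libraries where these were solved. PSMB4 stands at the right in all groups, and A771726 lies leftmost for most members.

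With leflunomide the median proteasome gene lay close to its DMSO level. The median log2 change of group means, taken after adding a small constant to each density, was -0.12 over the 33 members and -0.06 over all 8706 genes past the filter on low density, and 16 members lay above the median gene and 17 below it. No member was 2-fold higher (1.84% of all genes were) and none 2-fold lower (4.49%). In the core the median change was -0.13, in the regulatory particle -0.08 and for the 2 activator genes -0.67. limma on the recovered libraries called 0 of 26 members and 0 of 4897 genes (0.0%) at an adjusted p under 0.05, and at an unadjusted p under 0.05 it gave 1 member and 239 genes (4.88%). The median limma change was -0.19 over the members and -0.04 over all genes. In the 16 members with assigned libraries it was -0.05 with all libraries and 0.03 without leflunomide library 2.

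PSMB4 was that member. Its gene body density was 0.347 and 0.369 in DMSO and 0.230 and 0.2135 with leflunomide, so that both leflunomide libraries lay below both DMSO libraries. The limma estimate was -0.69 (95% interval -1.25 to -0.12, unadjusted p = 0.024, adjusted p = 0.907). PSMA1, of the α ring, had the lowest change of group means at -0.96, from 0.0486 and 0.0510 in DMSO to 0.0317 and 0.0172. For PSMA1 limma gave -1.02 (95% interval -2.11 to 0.07, adjusted p = 0.983), and the leflunomide libraries stood wide apart.

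PSMA7 had 0.165 and 0.1795 in DMSO and 0.115 and 0.0937 with leflunomide (change of means -0.71). PSMD8, of the lid, had 0.101 and 0.0568 in DMSO and 0.0494 and 0.0414 with leflunomide (-0.77). Both genes showed no overlap between the groups, but their limma intervals of -2.38 to 0.95 and -1.62 to 0.19 included 0. PSME1, an activator subunit, had 0.115 and 0.102 in DMSO and a group mean of 0.0592 with leflunomide (-0.85), for which the libraries could not be recovered.

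At the other end stood PSMB2 and PSMB3, β ring subunits without active sites. The group mean of PSMB2 was 0.0193 in DMSO and 0.0287 with leflunomide (0.52), and its DMSO libraries were not recovered. PSMB3 had 0.0439 and 0.0484 in DMSO and 0.0515 and 0.0666 with leflunomide, the latter not assigned to library numbers (0.34). It was the single member of 26 in which both leflunomide libraries were higher (14.3% of all genes), and in 10 both were lower (20.9%). Those 10 were PSMA1, PSMA7, PSMB4, PSMC4, PSMD3, PSMD4, PSMD7, PSMD8, PSMG4 and PSMC3IP. PSMD2, a scaffold subunit of the base (0.31), PSMF1 (0.27) and PSMA2 (0.16) made up the rest of the 5 highest. Neither PSMD2 nor PSMA2 was called by limma, and PSMF1 had no recovered library and was not tested.

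With A771726 the density of the proteasome genes was lower than in DMSO, as was that of most genes. The median change of group means was -0.69 over the members against -0.52 over all genes, and 13 members lay above the median gene and 20 below. At least 2-fold lower were 8 of 33 members (18.5% of all genes), and 0 were 2-fold higher (0.839%). Class medians were -0.61 for the core, -0.69 for the regulatory particle, -1.03 for the activator pair and -0.35 for the assembly factors. Relative to the median gene these were -0.09, -0.18, -0.51 and 0.17. By limma 0 of 26 members and 0 of 4897 genes (0.0%) were called, with a smallest adjusted p of 0.061 over all genes, and 9 members and 1081 genes (22.1%) had an unadjusted p under 0.05, all 9 members being lower. Without A771726 library 1, in genes with assigned libraries, limma called 81 of 3544 genes (2.29%) and 1 of 16 members, PSMA7.

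PSMD4, a ubiquitin receptor of the regulatory particle, had the smallest p. Its libraries stood at 0.0747 and 0.0848 in DMSO, 0.0623 and 0.0584 under leflunomide and 0.0373 and 0.0316 under A771726. The 3 groups did not overlap, and the limma estimate of A771726 against DMSO was -1.16 (95% interval -1.90 to -0.42, unadjusted p = 0.0070, adjusted p = 0.142). PSMB4 had 0.208 and 0.207 with A771726, close to its leflunomide values, and limma gave -0.78 against DMSO (95% interval -1.34 to -0.21, adjusted p = 0.164).

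The lid subunits PSMD3 and PSMD7 also had both A771726 libraries below both of DMSO. PSMD3 had 0.0452 and 0.0440 in DMSO and 0.0173 and 0.0254 with A771726 (not assigned), a limma estimate of -1.01 (adjusted p = 0.179). PSMD7 had 0.181 and 0.186 in DMSO and 0.0898 and 0.0984 with A771726, a limma estimate of -0.95 (adjusted p = 0.186). In PSMD7 the spread inside the DMSO and A771726 pairs was small beside the distance between them. Its leflunomide pair stood wide apart, at 0.165 and 0.0967. In PSMD3 the A771726 pair lay further apart than the DMSO pair. The others with an unadjusted limma p under 0.05 were PSMA7, PSMB10, PSMD8, PSMC4 and PSMB3.

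PSMA7 rested on 1 library. It had 0.0995 in library 1 and 0.0160 in library 2 of A771726, against 0.165 and 0.1795 in DMSO, and the limma estimate was -2.02 (95% interval -3.68 to -0.36, adjusted p = 0.187). Without A771726 library 1 the estimate was -3.26 and passed the adjusted threshold. PSMB5, the catalytic subunit with chymotrypsin-like activity, showed a like split, with 0.0419 and 0.0078 in A771726 against 0.0517 and 0.0609 in DMSO. In PSMG3 the DMSO libraries had 0.179 and 0.0982 and the A771726 libraries 0.0348 and 0.0884, so a change of means of -1.14 came with an interval of -2.66 to 0.23.

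The lowest change of group means was that of PSMC1, an ATPase, at -1.74. Its means were 0.0416 in DMSO, 0.0381 with leflunomide and 0.0109 with A771726, the A771726 libraries had 0.0138 and 0.0080, and its DMSO libraries were not recovered. PSMB10 was at -1.29 from 0.176 and 0.0738 in DMSO to 0.0468 and 0.0529, and PSME1 at -1.13 from a mean of 0.1085 to 0.0483. The highest changes were those of PSMF1 (0.20), PSMG4 (0.06), PSMD9 (-0.14), the inducible subunit PSMB8 (-0.18) and PSMB1 (-0.18). Of the 26 members 18 had both A771726 libraries below both of DMSO (55.3% of all genes) and 0 had both above (2.19%).

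PSMC5, the ATPase with the highest density, had 0.161 and 0.175 in DMSO, 0.179 and 0.160 under leflunomide and 0.135 and 0.108 under A771726, with a limma estimate of -0.47 for A771726 against DMSO (95% interval -1.12 to 0.18, adjusted p = 0.322). The further regulatory genes PSMC3, PSMD1, PSMD2, PSMD6, PSMD11 and PSMD13 had changes of means from -0.22 to 0.31 with leflunomide and from -0.70 to -0.31 with A771726. In the core PSMA2, PSMB1, PSMB2, PSMB6 and PSMB7 ranged from -0.32 to 0.52 and from -0.92 to -0.18. PSMD9 had 0.0239 and 0.0098 in DMSO, 0.0169 and 0.0191 under leflunomide and 0.0154 and 0.0148 under A771726, so its DMSO pair alone spanned the other groups.

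Outside the 2 particles, the second activator gene PSME2 had 0.0702 and 0.0574 in DMSO, 0.0487 and 0.0415 with leflunomide and a mean of 0.0326 with A771726. PSMF1, which inhibits the core, had group means of 0.0158 (DMSO), 0.0195 (leflunomide) and 0.0185 (A771726), and PSMG2 had 0.0124, 0.0118 and 0.0093. For PSMF1 no library and for PSMG2 the DMSO pair alone could be recovered. PSMC3IP, no subunit, had 0.150 and 0.165 in DMSO, 0.1025 and 0.1445 under leflunomide and 0.0764 and 0.118 under A771726, and both compounds lay below DMSO without overlap.

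The 2 compounds were then set against each other at the same dose and time, as 1 pair that differs by the opened ring. The median change of A771726 against leflunomide was -0.49 over the members and -0.47 over all genes, with 16 members above the median gene and 17 below. At least 2-fold lower were 4 of 33 (12.4% of all genes), PSMC1, PSMB5, PSMB3 and PSMG3, and 0 were 2-fold higher (1.03%). Both A771726 libraries were lower in 14 of 26 members (55.3%) and higher in 0 (2.35%). limma called 0 members and 0 genes (0.0%), and 3 members and 751 genes (15.3%) had an unadjusted p under 0.05.

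PSMB3 stood at 0.0515 and 0.0666 under leflunomide but at 0.0275 and 0.0252 under A771726, with no overlap. The limma estimate of the difference was -1.09 (95% interval -1.84 to -0.34, unadjusted p = 0.011, adjusted p = 0.320). For PSMD4 it was -0.77 (95% interval -1.51 to -0.04, adjusted p = 0.320). PSMB5 had 0.0655 and 0.0542 with leflunomide and a limma difference of -1.56 (95% interval -3.05 to -0.06, adjusted p = 0.320), with the wide A771726 pair given above. For PSMB4 the compounds differed by -0.09 with an interval of -0.66 to 0.47, which leaves room for a difference of either sign. PSMG4 (0.68) and PSMA1 (0.61) had the highest changes of means between the compounds, and their limma intervals were -0.35 to 1.54 and -0.53 to 1.65. The comparisons of both compounds with DMSO share the DMSO libraries, so their values stand side by side and were not correlated.

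**Figure D2:**
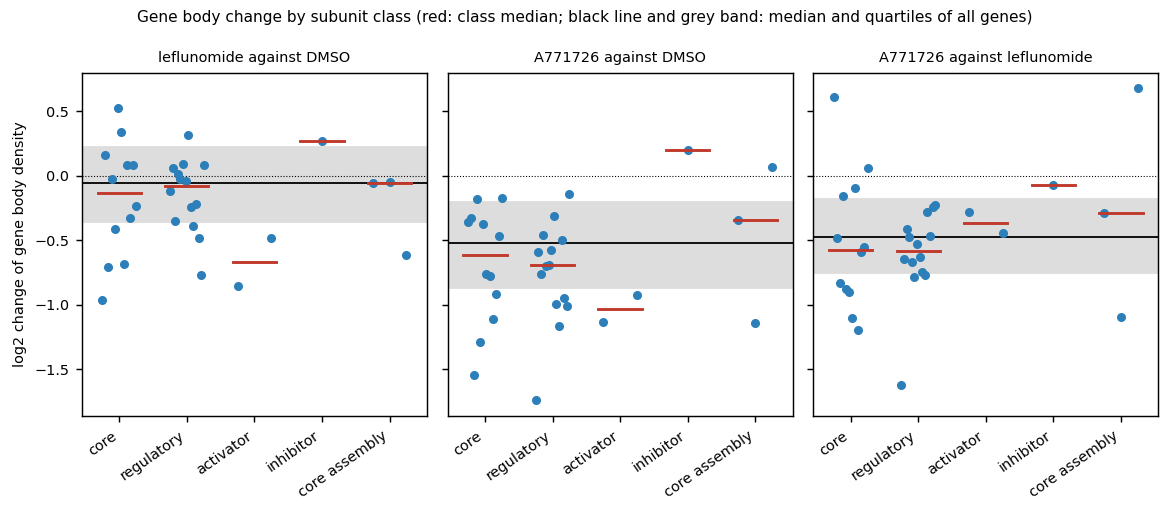
Log2 change of gene body density (group means) for each member, 1 point a gene, in 5 classes and the 3 comparisons, with red lines for class medians and the black line and grey band for the median and quartiles of all genes. With A771726 against DMSO the core and regulatory medians of -0.61 and -0.69 lie near the all-gene median of -0.52.

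**Figure D3:**
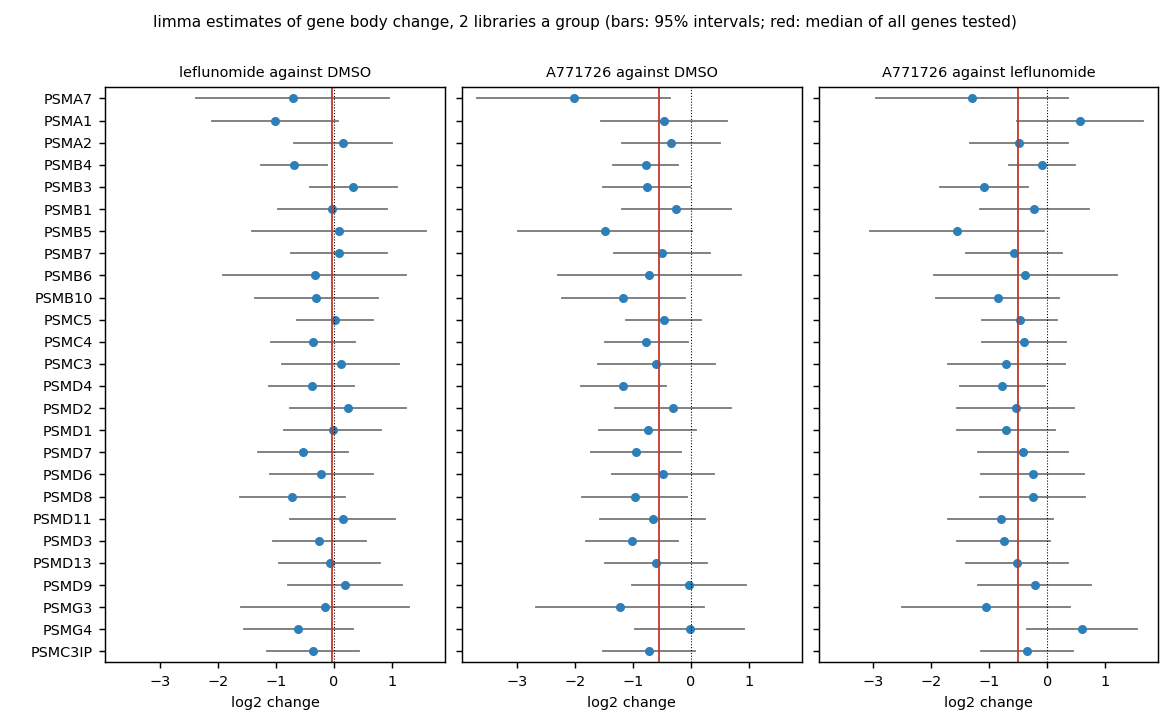
limma estimates of the log2 change of gene body density with 95% intervals for the 26 members with recovered libraries, and red lines at the median of all genes tested. All intervals are wider than 1 log2 unit, and those of PSMB4 with leflunomide and PSMG4 between the compounds alone miss the red line.

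Over all their members the core and the regulatory genes differed little in their median change. The median change of the core minus that of the regulatory and activator genes was 0.04 for leflunomide against DMSO, 0.12 for A771726 against DMSO and -0.07 between the compounds. Without the 2 activator genes, an alternative chosen after seeing the data, it was -0.05, 0.08 and 0.0084, so its sign for leflunomide and between the compounds rested on them. Within single libraries the log2 level of 7 core genes minus that of 8 regulatory genes was -0.51 and -0.06 in DMSO, -0.60 and -0.19 under leflunomide and -0.58 and -0.13 under A771726. The 2 libraries of a group thus lay further apart than the groups did. Those levels compare the genes with assigned libraries alone.

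At the promoters the counts were small. Where library and read value were known, member promoters held from 0 to 24 reads in a library, and in library 2 of DMSO 9 of 24 members had none, against 1 of 24 in library 1. With leflunomide 2 and 1 of 24 members had none, and with A771726 0 and 8 of 21. Members with a promoter mean of 0 in a group, 4 of the 33 in DMSO, and pairs that could not be assigned are not in these counts. The counts thus understate the promoters without reads. Of the 33 members 32 passed the filter on low promoter density, the exception being PSMF1, whose promoter is listed at 0 in all groups. A fold of such small counts moves with single reads, and a density near 0 depends on the pseudocount.

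With leflunomide the median promoter change over 32 members was 0.25 against 0.22 over all genes. At least 2-fold higher were 11 members (30.6% of all genes) and 2-fold lower 2 (16.0%). limma called 0 of 26 members and 12 of 5153 genes (0.233%), and 2 members and 115 genes (2.23%) had an unadjusted p under 0.05. Both libraries were higher than both of DMSO in 5 members (16.8% of all genes), PSMA7, PSMB6, PSMB7, PSMD2 and PSMD9, and lower in 0 (10.3%). Without DMSO library 1, in genes with assigned libraries, limma called 46 of 3735 genes (1.23%) and 1 of 16 members, PSMC5, and without either leflunomide library it called 2 genes.

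PSMC5, whose window is printed above, had promoter densities of 0.481 and 0 in DMSO (11 and 0 reads), 0.832 and 0.301 under leflunomide (24 and 8 reads) and 0.225 and 0.219 under A771726. One DMSO library was at 0, and limma gave 2.48 for leflunomide against DMSO (95% interval 0.61 to 4.36, unadjusted p = 0.0094, adjusted p = 0.996). Without DMSO library 1 the estimate was 4.905 and passed the adjusted threshold, as did that for A771726 against DMSO at 3.79. PSMD2 had 0 and 0.186 in DMSO, 0.445 and 0.2665 under leflunomide and 0.258 and 0.0756 under A771726, not assigned to library numbers, and limma gave 2.61 for leflunomide (95% interval 0.30 to 4.92, adjusted p = 0.996). In PSMB6, the catalytic subunit with caspase-like activity, the densities were 0.0875 and 0.0533 in DMSO, 0.347 and 0.150 under leflunomide and 0.0481 and 0.0313 under A771726, so that only the leflunomide pair stood high.

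Members at 0 in DMSO gave the highest promoter changes of group means. PSMC1 (3.18), PSMB2 (2.87) and PSMB8 (2.42) were listed at 0 in DMSO and had mean densities of 0.140, 0.110 and 0.0752 with leflunomide. PSMG2 (-2.26) and PSME1 (-1.82) were listed at 0 with leflunomide and had 0.0657 and 0.0438 in DMSO. Their recovered libraries held from 0 to 7 reads, so these figures depend on the pseudocount and are no measure of size.

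With A771726 the median promoter change was -0.50 over the members and 0.00 over all genes. In limma on all recovered genes the median change was -0.32 over 26 members and -0.11 over 5153 genes. In the genes with assigned libraries it was -0.10 over 16 members and -0.06 over 3735 genes. At least 2-fold higher were 5 of 32 (20.8% of all genes) and 2-fold lower 10 (26.0%). limma called 0 members and 13 genes (0.252%), and 1 member and 185 genes (3.59%) had an unadjusted p under 0.05. That member was PSMD7, with 0.131 and 0.422 in DMSO (not assigned), 0.243 and 0.210 under leflunomide and 0.0962 and 0 under A771726, and its limma estimate was -2.52 (95% interval -4.93 to -0.11, adjusted p = 0.994). Both A771726 libraries were higher than both of DMSO in 2 members, PSMA7 and PSMD1 (10.5%), and lower in 4, PSMB3, PSMB6, PSMD7 and PSMG4 (15.7%). Without DMSO library 1 the median limma change of the 16 members with assigned libraries was 0.61, and 40 of 3735 genes (1.07%) and 1 of the 16, PSMC5, were called. PSMA7 had 0 and 0.0520 in DMSO and 0.0786 and 0.188 with A771726, and PSMD1 had 0.175 and 0 against 0.192 and 0.282.

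Between the compounds the median promoter change was -0.91 over the members and -0.30 over all genes, with 12 members above the median gene and 20 below. In limma on all recovered genes the median change was -0.69 over 26 members and -0.38 over 5153 genes. In the genes with assigned libraries it was -0.42 over 16 members and -0.35 over 3735 genes. Most of the gap was thus absent in this smaller set, whereas part of it remained over the 26 members. At least 2-fold lower with A771726 were 15 of 32 (30.6% of all genes) and 0 were 2-fold higher (13.5%). Both A771726 libraries were lower than both of leflunomide in 9 of 26 members (22.3%) and higher in 0 (7.76%). limma called 0 members and 0 genes (0.0%), and 1 member, PSMD7 at -2.45 (95% interval -4.86 to -0.05, adjusted p = 0.998), and 122 genes (2.37%) had an unadjusted p under 0.05. Without A771726 library 1 limma called 8 of 3735 genes (0.214%) and 0 of 16 members. The lowest changes of means were those of PSMB2 (-2.87), PSME2 (-2.36) and PSMB6 (-2.22), and the highest those of PSMA1 (0.71), PSMB4 (0.30) and PSMD3 (0.21). With A771726 the promoter mean of PSMB2 was listed at 0 and that of PSME2 at 0.01205, under the pseudocount, so the sizes of these 2 changes depend on it. In PSMA1 the A771726 libraries held 2 and 16 promoter reads, so its mean rested on library 2.

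**Figure D4:**
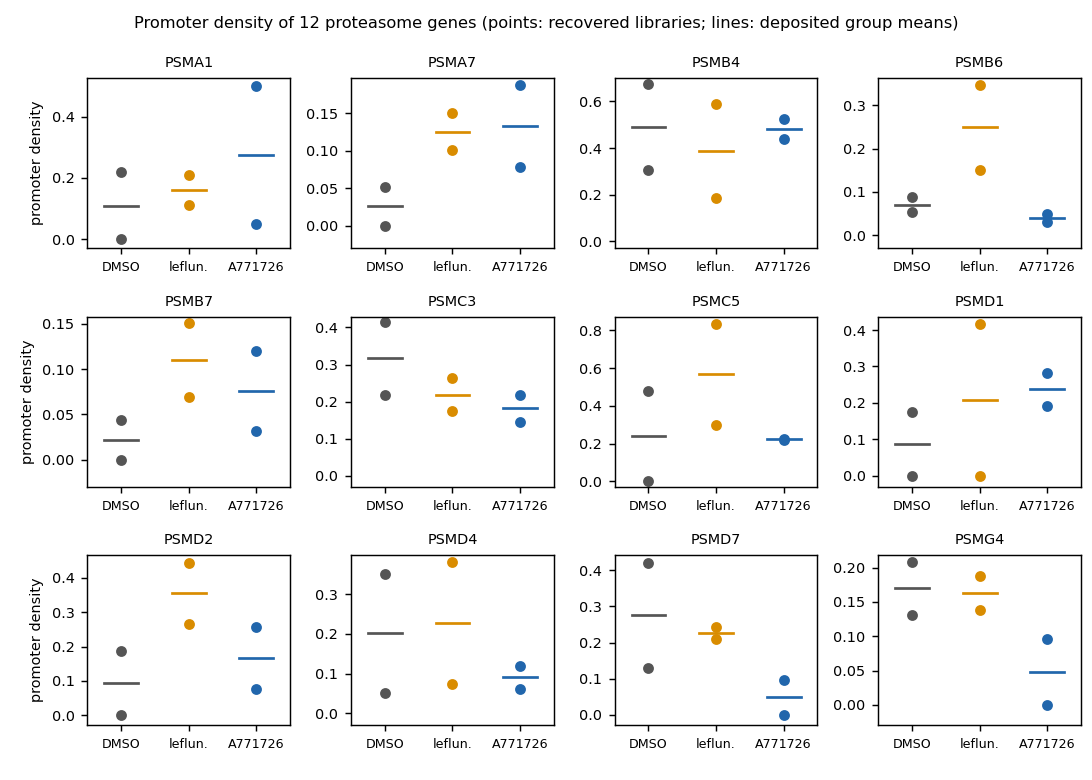
Promoter density of 12 members with points for the 2 recovered libraries of each group and lines for the deposited group means. PSMB6 stands high with leflunomide alone, at 0.347 and 0.150, and in PSMA1, PSMA7, PSMB7, PSMC5, PSMD1 and PSMD2 1 DMSO library is at 0.

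The traveling ratio rises with more polymerase near the promoter relative to the gene body, and is used as a measure of promoter-proximal pausing. No row of the tables has a mean DMSO ratio above 7.5, so every comparison with DMSO starts from a limited range of ratios. The ratio was compared in 26 members and 5173 genes. Its median change with leflunomide was 0.61 over the members and 0.27 over all genes, where 9 members were 2-fold higher or more (27.9%) and 0 lower (15.3%). For A771726 it was 0.03 against 0.42, with 6 higher (34.6%) and 4 lower (17.1%), PSMA2, PSMD7, PSMD13 and PSMG4. Between the compounds it was -0.39 against 0.15, with 4 higher, PSMA7, PSMD1, PSMD3 and PSMD11 (26.9%), and 8 lower (20.9%). In the 10 members with all ratios above 0, limma called 0 in each comparison, as it did among 1826 genes (0.0%), and 95, 140 and 93 genes had an unadjusted p under 0.05. In the members with assigned libraries the median limma change of the ratio with leflunomide was -0.40 without leflunomide library 1 and 1.19 without library 2, and between the compounds 0.97 and -0.47.

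Among the 26 members with a ratio above 0 in every group PSMA7 had the lowest DMSO ratio and the highest change with both compounds, at 0.145 in DMSO, 1.24 with leflunomide and 6.26 with A771726. Its DMSO promoter held 0 and 1 read and its gene body density was low in A771726 library 2, so both terms of the ratio rested on single libraries. PSMB6 had 3.25 in DMSO, 13.6 with leflunomide and 3.14 with A771726. The limma estimate for PSMB6 was 2.12 with leflunomide against DMSO (95% interval 0.20 to 4.04, adjusted p = 0.906) and -2.16 between the compounds (95% interval -4.08 to -0.24, adjusted p = 0.891). PSMD1 had 5.51, 12.9 and 29.6, the highest ratio of any member.

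At the lower end of the changes with A771726 were PSMG4 (3.59 in DMSO and 0.727 with A771726), PSMA2 (1.503 and 0.519) and PSMD7 (1.496 and 0.536). With leflunomide they were PSMC3 (5.61 in DMSO and 3.135 with leflunomide), PSMB10 (1.31 and 0.834) and PSMD6 (1.62 and 1.18). PSMG3 and PSMB7 had mean ratios of 0.245 and 0.445 in DMSO and 1.76 and 2.40 with leflunomide, and were not among the 10 members tested.

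**Figure D5:**
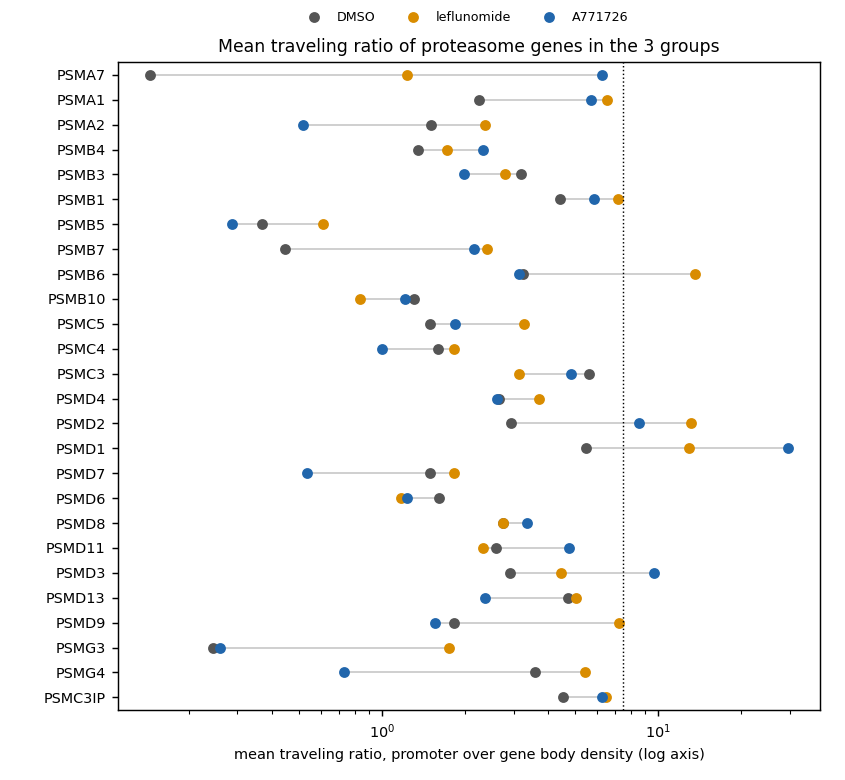
Mean traveling ratio of 26 members in the 3 groups on a log axis, as deposited, with a dotted line at 7.5, the limit of the tables in DMSO. No member lies beyond the line in DMSO, whereas PSMB6, PSMD1 and PSMD2 do with leflunomide and PSMD1, PSMD2 and PSMD3 with A771726.

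Other genes of the pathway had medians near those of all genes. Of 35 listed genes for ubiquitin, its enzymes, shuttle factors, deubiquitinases, further subunits and regulators 21 were in the tables and 20 passed the filter. Their median gene body change was -0.03 with leflunomide, -0.49 with A771726 and -0.46 between the compounds, against -0.06, -0.52 and -0.47 for all genes. None was 2-fold higher in any comparison, where 0.839% to 1.84% of all genes were. With A771726 against DMSO 1 of the 20 was 2-fold lower (18.5% of all genes), and none was with leflunomide (4.49%) or between the compounds (12.4%). That gene was RPS27A, which encodes a ubiquitin fused to a ribosomal protein, at -1.46 from a mean of 0.292 to 0.105. NFE2L1, the activator of proteasome genes, stood at mean densities of 0.0852 (DMSO), 0.0850 (leflunomide) and 0.0450 (A771726), a change of -0.89 with A771726.

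With leflunomide the shuttle factor gene RAD23B (0.51) and the segregase cofactor gene UFD1L (0.46) were highest, and the conjugating enzyme gene UBE2D3 (-0.63) and RPS27A (-0.59) lowest. With A771726 RPS27A and NFE2L1 were lowest, and the polyubiquitin gene UBB stood at -0.12 and UFD1L at -0.15. These are changes of the authors' means, with no test.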

How the data were processed

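GRO-seq of A375 cells was analysed in 6 libraries, 2 for each of the 3 groups. Per the submitters' processing notes the reads were processed with Bowtie 0.12.9 and bedtools on hg18. No source used here gives the windows, the scaling or the depth. The deposited promoter and gene body values are read density means over 2 libraries of a group, and the deposited traveling ratio is the authors' mean ratio of promoter to gene body density. The tables' columns carry the group and no replicate letter.

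Where a symbol had several rows, that of highest mean gene body density stands for it. Members, classes and gene lists were chosen with earlier results of these data known. Changes are log2 ratios of group means after adding a pseudocount of 0.0022 (gene body) or 0.01735 (promoter), which understates the change of low genes, and the ratio had none. Genes under the 30th percentile of row means were left out, which kept 8706 genes for gene bodies and 8838 for promoters. Library pairs were solved for 97.5%, 98.0% and 98.1% of rows that had both a promoter value and a ratio, in DMSO, leflunomide and A771726. Of their promoter values 79.3%, 77.6% and 81.0% were whole multiples of 1 read within 6e-05, against 0.08%, 0.09% and 0.13% of shifted values. The pairs entered limma 3.58.1 (trend and robust options, 2-sided, all groups in 1 fit, Benjamini-Hochberg over all genes), which was tested on simulated data. Named genes were the highest member of each class, the 5 highest and 5 lowest gene body changes of each comparison, the 3 highest and 3 lowest for promoters and ratios, and the 5 smallest limma p-values. Of the other pathway genes the 3 highest, the 3 lowest and NFE2L1 were to be named, and some of these are not reported here. Genes beyond these were named after their values were seen. Alternatives changed the pseudocount, filter, centring, row choice, limma options and libraries.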

Additional observations from a re-analysis of the deposited data

How the results depend on the processing

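No paired analysis was possible because the recovered libraries carry no replicate letter. Of the alternative values of summaries 350 stayed within the library spread (counts within 1.5 times) of the main value and 46 moved, and of the values of single genes 1461 stayed on their side of the threshold and 3 passed the threshold newly, as given beside PSMA7 and PSMC5. Centred on the median gene, the median gene body change with A771726 against DMSO was -0.18 for members, -0.094 for core, -0.18 for regulatory and -0.51 for activator genes. Between the compounds it was -0.012, -0.10, -0.11 and 0.11, and the ratio with A771726 against DMSO was -0.39. Chosen after seeing the data, libraries centred on their medians in genes with assigned libraries gave member medians of -0.0016 (leflunomide), -0.054 (A771726) and 0.0052 (between compounds) for gene bodies, and 0.045 for promoters between the compounds. A pseudocount 5 times larger gave -0.54 for gene bodies with A771726. limma without trend and robust called 0 promoters with either compound, against 12 and 13. Leaving out 1 library at a time, in genes with assigned libraries, gave member medians for gene bodies of -0.30 to 0.030 with leflunomide, -0.78 to -0.41 with A771726 and -0.70 to -0.26 between the compounds. For promoters they were 0.015 to 1.38 with leflunomide and -0.35 to 0.61 with A771726, and for the ratio -0.40 to 1.19 with leflunomide and -0.47 to 0.97 between the compounds. Genes called then numbered 0 to 1 (leflunomide) and 0 to 81 (A771726) for gene bodies, 2 to 46, 12 to 40 and 0 to 8 (between compounds) for promoters, and 0 to 1 (leflunomide) and 0 to 9 (A771726) for the ratio. Members called were 0 to 1 for gene bodies with A771726 and for promoters with either compound. A lone library is then assumed to vary like the other groups. The few promoter reads limit what can be detected there, and densities without stated depth allow no counting interval.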
